A study of Mus musculus with 212 samples.

Results

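The reference smooth muscle cells and fibroblasts are 10 single mouse cells, 5 named SMC and 5 named FB in the table of reference cells, out of 30 cells in that table and 200 cells in the series, which also has 12 control columns. The cells were chosen by their names alone, with no measured value used, and each sample is 1 cell. The study profiled single cells of the cardiovascular lineages from differentiating mouse embryonic stem (ES) cells, embryos and hearts with TaqMan quantitative PCR on microfluidic chips. For the reference cells the labels give embryoid bodies (aggregates of differentiating ES cells) and mouse embryo as the joint source and list CPC, CM, SMC, FB, EDC and ESC as the types. They do not say which source, stage, strain, sort or culture gave the SMC or the FB cells, so a difference between the types and a difference between their sources cannot be told apart. SMC is read here as smooth muscle cell and FB as fibroblast. No animal or culture is named, so each type counts as 1 sample, no test was run, and every SD is the spread between 5 cells.

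The deposited value is the quantification cycle (Ct), which is lower where an assay started from more template, and 25 is the entry for no signal. Expression is written here as 25 minus Ct, in cycles above that limit. A step of 1 cycle equals 1 log2 unit when PCR is fully efficient, and 0 means that no signal was read. Levels of different assays are not comparable, because each assay has its own efficiency, so single levels are compared between cells on 1 assay. Sums and medians over assays are given per cell as descriptions and weight the assays unequally. The panel held 42 assays of 33 genes. The negative control of the table had signal on 0 of the 42 assays and the positive control on all 42, and none of the 10 cells repeated another cell of the series.

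Smooth muscle cells contract through an actin and myosin apparatus that differs from the sarcomere of heart muscle. Its myosin heavy chain is encoded by Myh11, and the actin-associated proteins transgelin (Sm22 alpha) and calponin 1 (Cnn1) accompany it in differentiated cells. Fibroblasts are mesenchymal cells known for secreting extracellular matrix, such as fibronectin (Fn1), and for an intermediate filament network of vimentin (Vim). Neither vimentin nor fibronectin is restricted to fibroblasts, and smooth muscle and endothelium make them too.

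The 3 smooth muscle assays separated the types by about 9 to 11 cycles, and every SMC cell lay above every FB cell on each of them. Vim was also higher in every SMC cell, while Fn1 and an assay of the cardiac factor Gata4 were lower on average in SMC. Of the 42 assays, 13 had a mean at least 1 cycle higher in SMC (31%) and 2 a mean at least 1 cycle lower (4.76%). The cells of the types did not overlap on 4 assays that were higher in SMC (9.52% of the 42) and on 0 that were lower (0% of the 42). Leaving out SMC-2, FB-3 or FB-5 gave 4 assays lower in SMC in place of 2. Another 18 assays had no signal in any of the 10 cells, and the median difference over the 42 assays was 0. Over the 24 assays with signal the median difference was 1.35 cycles. Of the 24 assays with signal, 14 had it in both types, 9 in SMC only and 1 in FB only. Centring each cell on its own Actb, the assay of cytoplasmic beta-actin, gave 13 assays higher and 4 lower, with Hand2 lost and Kit-2 (1.04) gained among the higher ones. Kit-2 had no FB signal, so its size there depends on the value set for undetected entries. Centring on the median of the assays each cell detected gave 10 higher and 6 lower.

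Myh11, the smooth muscle myosin heavy chain, was at 10.69, 12.12, 11.90, 11.51 and 12.53 cycles in cells SMC-1 to SMC-5. In cells FB-1 to FB-4 it was not detected, and in FB-5 it was at 4.37. The types were 6.32 cycles apart at their nearest cells. Means were 11.75 ± 0.70 in SMC and 0.87 ± 1.96 in FB (SD, n = 5 each), a difference of 10.88 cycles that is a lower limit in size, because the undetected cells are counted at the limit.

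Cnn1 encodes calponin 1, an actin-binding protein of the smooth muscle contractile apparatus. It was at 8.80, 10.18, 11.26, 9.80 and 10.38 cycles in cells SMC-1 to SMC-5 and was not detected in any of the 5 FB cells. The difference was therefore at least 10.08 cycles, and 0 of 5 allows a share of detecting FB cells of up to 52.2% (exact 95% interval, counting error only).

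Sm22A, the transgelin assay, behaved differently in FB, where all 5 cells gave a low signal. The SMC cells were at 10.26, 12.64, 12.29, 11.35 and 13.01 cycles, and the FB cells FB-1 to FB-5 at 5.81, 2.74, 2.51, 2.70 and 1.17. The lowest SMC cell stood 4.45 cycles above the highest FB cell. Means were 11.91 ± 1.11 in SMC and 2.99 ± 1.71 in FB (SD, n = 5 each), a difference of 8.92 cycles. The name Sm22A is a synonym of both Tagln and Tagln2 in the RefSeq annotation, and it is taken here as Tagln.

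SMC-1 was the lowest of the 5 SMC cells on each of the 3 assays. In FB the cell with Myh11 signal, FB-5, had the lowest Sm22A of its type, and FB-1, with the highest Sm22A, had no Myh11 or Cnn1 signal. The summed level of the 3 assays ran between 29.7 and 35.9 cycles in SMC cells, with a median of 34.9, and between 2.51 and 5.81 in FB cells, with a median of 2.74.

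**Figure D1:**
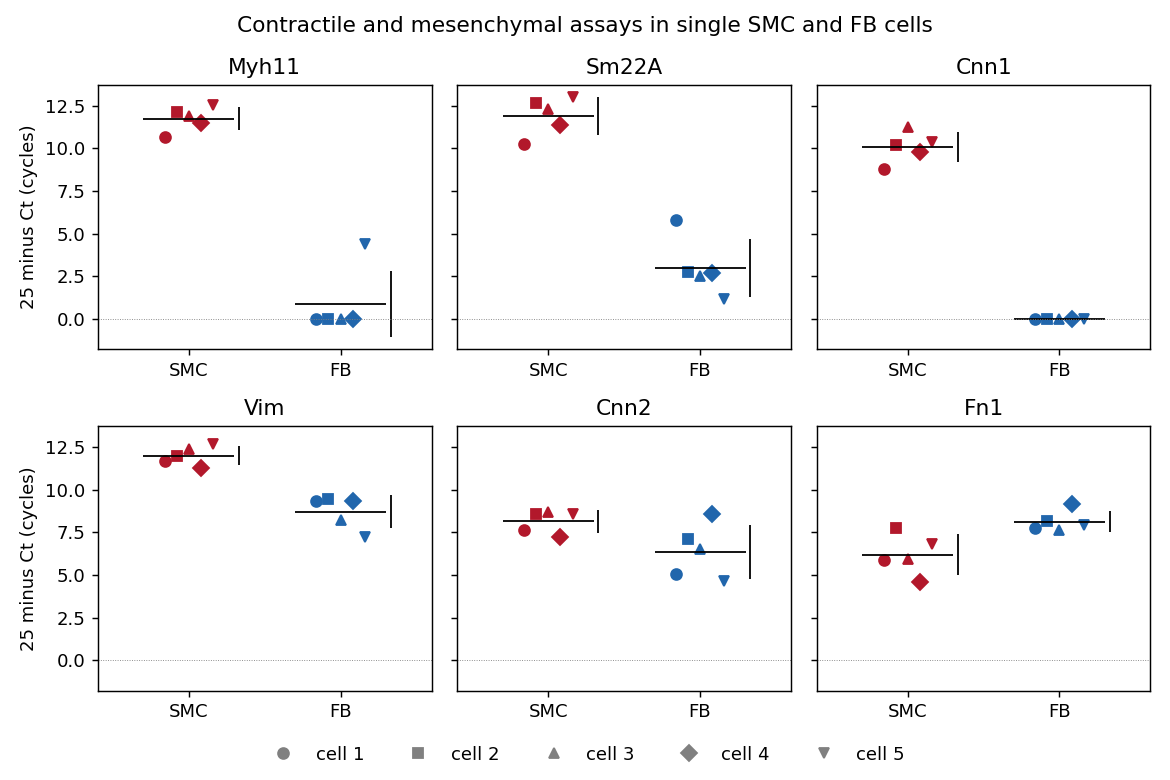
Expression (25 minus Ct, cycles above the detection limit) of 6 assays in each SMC cell (red, left) and FB cell (blue, right), where marker shapes number the cells, horizontal lines are means and vertical lines are ± 1 SD over 5 cells. Myh11, Sm22A, Cnn1 and Vim do not overlap between the types, with nearest cells 6.32, 4.45, 8.80 and 1.82 cycles apart, while Cnn2 and Fn1 overlap.

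Calponin 2, encoded by Cnn2, is the calponin found in smooth muscle and in many nonmuscle cells. Unlike Cnn1 it was detected in all 10 cells, at 7.62, 8.56, 8.69, 7.24 and 8.56 cycles in the SMC cells and at 5.03, 7.09, 6.53, 8.55 and 4.64 in the FB cells. The types overlapped through FB-4, which lay above SMC-1 and SMC-4. Means were 8.13 ± 0.66 in SMC and 6.37 ± 1.59 in FB (SD, n = 5 each), a difference of 1.77 cycles that became -0.06 after centring on the median detected assay.

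Because the calponin paralogs differed in this way, and Vim is the remaining assay on which all SMC cells lay above all FB cells and whose promoter is at hand, the 250 bases before the annotated start of these 3 genes are shown, from RefSeq sequence of build GRCm38.p6, plus strand. The windows are chr9:22099003-22099252 for Cnn1, chr10:79988350-79988599 for Cnn2 and chr2:13574061-13574310 for Vim. Capitals mark matches, on either strand, to the CCAAT box (CCAAT), the TATA box (TATAAA) and the CArG box, the element bound by serum response factor.
Cnn1: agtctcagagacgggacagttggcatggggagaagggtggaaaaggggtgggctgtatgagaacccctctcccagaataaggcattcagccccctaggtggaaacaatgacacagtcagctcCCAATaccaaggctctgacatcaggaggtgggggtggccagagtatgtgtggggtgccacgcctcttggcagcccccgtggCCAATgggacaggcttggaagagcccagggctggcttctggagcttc
Cnn2: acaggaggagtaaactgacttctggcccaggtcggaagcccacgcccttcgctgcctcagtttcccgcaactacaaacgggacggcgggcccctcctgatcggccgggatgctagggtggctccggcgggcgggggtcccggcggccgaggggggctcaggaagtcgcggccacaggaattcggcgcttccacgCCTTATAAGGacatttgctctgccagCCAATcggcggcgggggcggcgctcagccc
Vim: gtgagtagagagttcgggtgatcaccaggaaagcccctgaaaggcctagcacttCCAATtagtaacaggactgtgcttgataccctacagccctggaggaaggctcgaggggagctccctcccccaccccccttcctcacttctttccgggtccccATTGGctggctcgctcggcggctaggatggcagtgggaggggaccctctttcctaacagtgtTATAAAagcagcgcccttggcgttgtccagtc
A CArG box was found in the Cnn2 window, from -56 to -47 counted back from the start, and not in the Cnn1 or the Vim window. A CArG box is held by 1.48% of the 32544 promoter windows of this length in the RefSeq table. CCAAT matches were found in all 3 windows (at -47 to -43 and -128 to -124 in Cnn1, -30 to -26 in Cnn2, and -94 to -90 and -196 to -192 in Vim), as in 33.8% of all windows. A TATA box was found in the Vim window only, from -32 to -27, and 12.3% of all windows hold one. The search also covered the GC box (GGGCGG) and the E-box (CANNTG) on both strands, which are not in capitals. GC boxes numbered 0 in the Cnn1 window, 2 in Cnn2 and 0 in Vim, and 32.96% of all windows hold one. E-boxes numbered 1 in the Cnn1 window, 1 in Cnn2 and 0 in Vim, and 66.2% of all windows hold one. A match is a description of the letters, and no match says only that the letters are not in this window.

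Of the assays of mesenchymal genes, Vim and Pdgfra had higher means in SMC and Fn1 a lower one. Vim, the vimentin filament gene, was at 11.67, 11.95, 12.41, 11.27 and 12.67 cycles in the SMC cells and at 9.33, 9.45, 8.23, 9.34 and 7.20 in the FB cells. All SMC cells were higher, by 1.82 cycles at the nearest cells, and FB-5 was the lowest. Means were 11.99 ± 0.56 in SMC and 8.71 ± 0.98 in FB (SD, n = 5 each), and the difference of 3.29 cycles corresponds to 9.76-fold at full PCR efficiency. After centring on the median detected assay the difference was 1.46 cycles and the types overlapped.

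Fn1, the gene of the matrix protein fibronectin, ran the other way. It was at 5.87, 7.74, 5.93, 4.56 and 6.82 cycles in the SMC cells and at 7.74, 8.15, 7.61, 9.14 and 7.95 in the FB cells. Only SMC-2 reached the FB range, level with FB-1 and above FB-3. Means were 6.18 ± 1.19 in SMC and 8.12 ± 0.61 in FB (SD, n = 5 each), a difference of -1.93 cycles that was -2.34 after centring on Actb and -3.76 after centring by the median. Without SMC-2 the types did not overlap on Fn1, and with all cells kept they did not overlap after centring on Actb. After centring by the median they overlapped.

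Pdgfra, a receptor tyrosine kinase of mesodermal and mesenchymal cells, was detected in SMC-2 at 6.35 cycles and in SMC-3 at 5.36, and in 0 of 5 FB cells. The mean difference of 2.34 cycles rests on these cells. It was 1.34 without SMC-2, 1.54 at a limit of Ct 23 and 0 with medians over cells. Of the 3 assays of the fibroblast list (Vim, Fn1 and Pdgfra), 2 were thus at least 1 cycle higher in SMC and 1 lower. Their median difference was 2.34 cycles, and of all 42 assays 31% were higher and 4.76% lower.

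**Figure D2:**
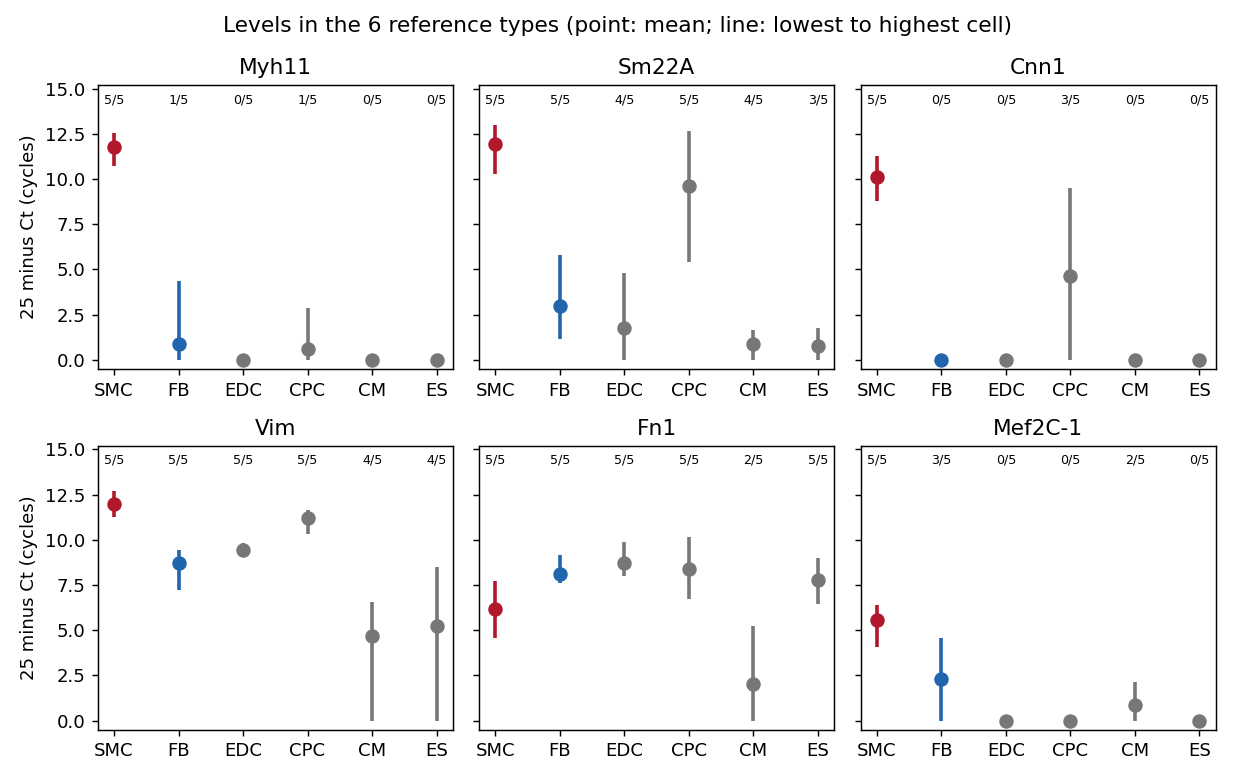
Expression (25 minus Ct, cycles) of 6 assays in the reference types SMC, FB, EDC, CPC, CM and ES, with the mean as a point, the range of 5 cells as a line and the number of detecting cells above. SMC cells stand highest on Myh11, while Fn1 in FB cells (mean 8.12) lies within the range of EDC and CPC cells.

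Beside the other reference types, Myh11 was detected in 1 of the 20 reference cells that are neither SMC nor FB, a CPC cell at 2.88 cycles. No reference cell outside SMC reached the lowest SMC cell at 10.69. The row is named Myh11-1 in the reference table and differently in most other tables, so its level was not set against the rest of the series.

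Sm22A and Cnn1 were shared with the CPC cells, read as cardiac progenitors. Sm22A averaged 11.91 ± 1.11 in SMC and 9.64 ± 2.83 in CPC cells (SD, n = 5 each), whose highest cell, at 12.67, lay within the SMC range. The lowest SMC cell on Cnn1 was at 8.80 cycles, and 3 of 5 CPC cells had Cnn1 signal, the highest at 9.53. Among the distinct cells of the series outside the 10, 21 reached the lowest SMC value on Sm22A and 51 did so on Cnn1, where levels are set across tables whose comparability was not tested. Vim averaged 11.99 ± 0.56 in SMC and 11.20 ± 0.53 in CPC cells (SD, n = 5 each).

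EDC cells, read as endothelial, overlapped FB on Vim, Fn1 and Cnn2. Fn1 averaged 8.12 ± 0.61 cycles in FB and 8.72 ± 0.79 in EDC cells (SD, n = 5 each). Vim averaged 8.71 ± 0.98 in FB and 9.46 ± 0.31 in EDC cells, and Cnn2 averaged 6.37 ± 1.59 in FB and 6.36 ± 0.65 in EDC cells. On Fn1 the CPC cells (8.36 ± 1.26) and the ES cells (7.76 ± 0.99) overlapped FB as well. The endothelial assays were Cdh5 (the junctional VE-cadherin), Pecam1 (an adhesion molecule), Vwf (von Willebrand factor) and Flk-1 (the VEGF receptor Kdr). All 4 were at 0 in FB. In EDC cells Cdh5, Pecam1 and Vwf were detected in 5 of 5 and Flk-1 in 4 of 5. Flk-1 was also detected in 3 of 5 CPC cells, and Pecam1 in 4 of 5 ES cells and 1 of 5 CPC cells. In SMC cells the only reading among these 4 assays was Vwf in SMC-2, at 1.41 cycles.

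The check of the types against their markers was thus uneven. All 3 smooth muscle markers were detected in all 5 SMC cells. For FB, Vim and Fn1 were detected in all 5 cells and Pdgfra in none, and the collagen and other genes that define fibroblasts more closely are not among the 42 assays analysed here, so the name FB could not be checked by a defining gene.

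Among the transcription factors, both Mef2C assays and Hand2 had higher means in SMC and both Gata4 assays lower ones. Mef2C, a MADS-box factor of muscle and other mesodermal cells, was read by 2 assays. On Mef2C-1 the SMC cells were at 4.09, 6.08, 6.40, 4.87 and 6.29 cycles, and the FB cells at 3.87, 0, 0, 2.98 and 4.57. Every SMC cell detected it and FB-5 alone reached into the SMC range. Means were 5.55 ± 1.02 in SMC and 2.28 ± 2.16 in FB (SD, n = 5 each), a difference of 3.26 cycles that was 1.74 over detecting cells only.

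Mef2C-2 was detected in 3 SMC cells, SMC-3 at 8.09, SMC-4 at 5.51 and SMC-5 at 6.23 cycles, and in FB-1 at 3.96 and FB-5 at 4.12. Its difference of 2.35 cycles was smaller than the pooled SD between cells of 3.07. It was 1.32 without SMC-3, 1.38 after centring by the median and 5.51 with medians over cells. The assays of the gene matched in detection in 7 of the 10 cells, since SMC-1, SMC-2 and FB-4 had signal on Mef2C-1 alone. Among the 15 EDC, CPC and ES cells neither assay had signal, whereas in CM cells Mef2C-1 was detected in 2 of 5 and Mef2C-2 in 4 of 5.

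Gata4, a zinc finger factor of the heart, had the most negative difference on its assay Gata4-2. In SMC it was detected in SMC-2 alone, at 5.97 cycles. In FB it was at 4.49, 5.55, 5.51 and 5.60 in cells FB-1 to FB-4 and undetected in FB-5, so that the lone SMC reading lay above all FB cells. Means were 1.19 ± 2.67 in SMC and 4.23 ± 2.41 in FB (SD, n = 5 each), a difference of -3.04 cycles, and -4.23 without SMC-2. It was -1.84 at a limit of Ct 23, -4.62 after centring by the median and -5.51 with medians over cells. Detection was in 1 of 5 SMC and 4 of 5 FB cells. Gata4-1 had signal only in FB-4, at 4.91 cycles, and both assays detected the gene together in 1 cell of the 10.

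Hand2, a bHLH factor of the developing heart and limb, was found in both types. The SMC cells were at 5.89, 6.01, 7.03, 0 and 7.52 cycles and the FB cells at 4.69, 5.36, 3.45, 3.66 and 3.17. The 4 detecting SMC cells lay above all FB cells, and SMC-4 had no signal. Means were 5.29 ± 3.04 in SMC and 4.07 ± 0.92 in FB (SD, n = 5 each), and the difference of 1.23 cycles, below the pooled SD of 2.24, became 2.55 without SMC-4, also over detecting cells only, and 2.35 with medians over cells. It was 0.79 without SMC-3, 0.67 without SMC-5, 0.46 after centring on Actb and -0.86 after centring by the median.

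Other cardiac and progenitor factors were almost silent. Isl1 (both assays), Nkx2.5-2, Tbx5, Hand1 and Mesp1 were not detected in any of the 10 cells, and neither was Tbx1, a T-box factor outside the marker lists. Nkx2.5-1, an assay of the cardiac homeobox factor, read 0.17 cycles in SMC-5. Kit, a receptor tyrosine kinase of progenitor cells, gave scattered readings: Kit-1 was at 0.57 in SMC-2 and 3.19 in FB-1, and Kit-2 at 3.46 in SMC-4, so that no cell was positive on both. Of the 14 assays of the list, 3 were at least 1 cycle higher in SMC (both Mef2C assays and Hand2) and 1 was lower (Gata4-2). Their median difference was 0, and of all 42 assays 31% were higher and 4.76% lower. The list had 16 readings in SMC and 16 in FB, of 70 possible in each type. Across all 42 assays there were 68 in SMC and 52 in FB, of 210 possible.

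Sarcomere genes of cardiac muscle appeared in some SMC cells. Troponin T (Tnnt2) was detected in SMC-5 on both of its assays, at 7.41 cycles on Tnnt2-1 and 7.48 on Tnnt2-2, and in no other cell of the 10. The CM cells, read as cardiomyocytes, averaged 11.24 ± 1.18 on Tnnt2-1 (SD, n = 5), so that SMC-5 stood below their lowest cell at 10.05. In the same cell Myh6, Myh7, Tnni3, Myl2 and Actn2 had no signal, while its Myh11 and Sm22A were the highest of the SMC type.

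Actn2, the sarcomeric alpha-actinin, was detected in other SMC cells, at 4.52 cycles in SMC-1, 0.84 in SMC-2 and 2.70 in SMC-4, against CM cells at 8.92 ± 0.72 (SD, n = 5). In FB it was detected in 0 of 5 cells. Myl2, the ventricular regulatory light chain, was found in both types, in SMC-2 at 4.67 and in FB-1 and FB-2 at 4.98 and 4.23. Of the 12 cardiomyocyte assays 3 (Actn2 and both Tnnt2 assays) were at least 1 cycle higher in SMC and 0 lower. Their median difference was 0, and 7 of them had no signal in any of the 10 cells. Over all 42 assays, 13 were at least 1 cycle higher in SMC (31%) and 2 lower (4.76%). The Actn2 difference of 1.61 cycles was 0.88 without SMC-1, 0.64 at a limit of Ct 23 and 0.84 with medians over cells, and both Tnnt2 differences were 0 with medians. The list had 7 readings in SMC and 2 in FB, of 60 possible in each type. Across all 42 assays there were 68 readings in SMC and 52 in FB, of 210 possible. Summed over the list, cells ran between 0 and 14.9 cycles in SMC, with a median of 4.52, and between 0 and 4.98 in FB, with a median of 0. Whether cardiac muscle RNA from elsewhere contributed to these readings was not tested. Without SMC-5 the number of assays higher in SMC was 10 in place of 13, since both Tnnt2 assays and Hand2 were then less than 1 cycle apart.

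**Figure D3:**
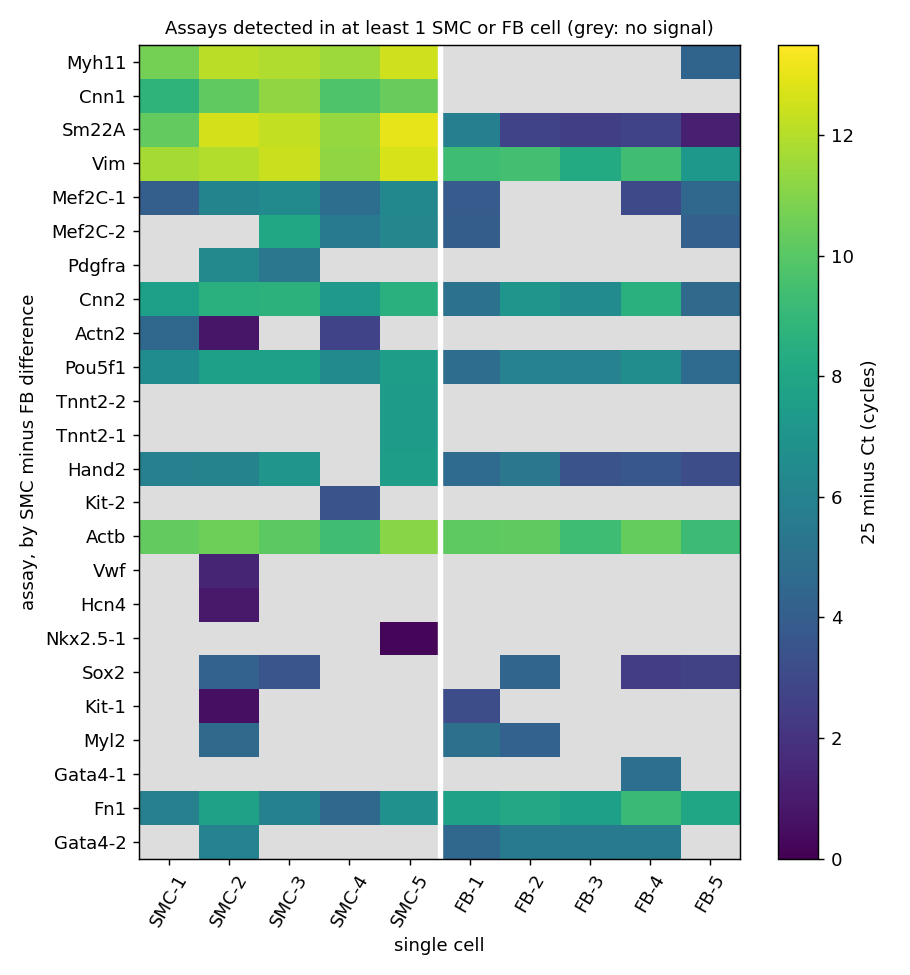
Expression (25 minus Ct, colour scale in cycles) of the 24 assays detected in at least 1 of the 10 cells, ordered by the SMC minus FB difference, with SMC cells on the left, FB cells on the right and grey for no signal. Myh11, Cnn1, Sm22A and Vim at the top separate the types, while readings of Tnnt2, Kit-2, Vwf and Hcn4 lie in 1 cell each.

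The pluripotency factor Pou5f1 (Oct4) was detected in all 10 cells, and also in all 20 other reference cells. It was at 6.55, 7.61, 7.61, 6.43 and 7.51 cycles in the SMC cells and at 4.85, 6.0, 6.0, 6.60 and 4.72 in the FB cells. The types overlapped through FB-4, which lay just above SMC-1 and SMC-4. Means were 7.14 ± 0.60 in SMC and 5.63 ± 0.82 in FB (SD, n = 5 each), a difference of 1.51 cycles that became 1.10 after centring on Actb and -0.32 after centring by the median. On Pou5f1 the EDC cells averaged 5.28 ± 0.67, the CPC cells 5.06 ± 1.79 and the CM cells 5.33 ± 0.22 (SD, n = 5 each). ES cells averaged 8.99 ± 0.65 (SD, n = 5), and their lowest cell, at 7.96, lay above the highest SMC cell. Sox2, its partner factor in ES cells, was detected in 2 of 5 SMC cells and 3 of 5 FB cells, with means of 1.56 ± 2.15 in SMC and 1.90 ± 1.90 in FB (SD, n = 5 each).

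Vcam1, a vascular cell adhesion molecule, was detected in 0 of 5 SMC and 0 of 5 FB cells. A detecting share of up to 52.2% therefore remains possible in each type (exact 95% interval, counting error only). Hcn4, the pacemaker channel, read 0.91 cycles in SMC-2 and was at 0 elsewhere. With Vwf, Hcn4, Kit-1, Myl2 and Gata4-2, SMC-2 held 5 readings that no other SMC cell had, and it detected the most assays of the 10 cells, 18.

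More assays were detected per SMC cell than per FB cell on average, with overlapping ranges. SMC cells detected 11, 18, 13, 12 and 14 assays and FB cells 12, 10, 8, 11 and 11, with means of 13.6 ± 2.70 in SMC and 10.4 ± 1.52 in FB (SD, n = 5 each). The difference of 3.2 assays was 2.1 without SMC-2 and 2.0 with medians over cells. Actb was at 10.23, 10.52, 10.11, 9.36 and 11.12 cycles in the SMC cells and 10.17, 10.23, 9.32, 10.33 and 9.25 in the FB cells. The ranges overlapped and the difference of 0.41 cycles was below the pooled SD of 0.59. The median detected assay was at 7.25 ± 0.73 cycles in SMC and 5.42 ± 0.68 in FB (SD, n = 5 each), a measure that includes the smooth muscle genes themselves.

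Scaling on these measures mattered for the smaller differences. Centring on Actb shifted the median over the 23 assays with signal other than Actb by -0.39 cycles and kept 14 of the 15 assays past 1 cycle on their side, the exception being Hand2 (0.46). Centring on the median detected assay shifted the median over all 24 by -0.75 and kept 12, losing Cnn2, Pou5f1 and Hand2. In both centrings undetected entries were set to a common value, the lowest centred value over the 10 cells (-11.12 by Actb, -8.09 by the median). Cnn1, Pdgfra, Actn2 and both Tnnt2 assays had no FB signal and therefore could not turn lower in SMC. Myh11 (11.35 by Actb and 11.01 by the median), Cnn1 (10.93 and 10.92), Sm22A (8.51 and 7.09) and Vim (2.88 and 1.46) kept a higher mean in SMC. On Vim the types overlapped after centring by the median. Fn1 (-2.34 and -3.76) and Gata4-2 (-3.81 and -4.62) stayed lower. The centred sizes of Myh11, Cnn1 and Gata4-2 depend on the value set for undetected entries, which is the whole FB mean on Cnn1. The larger Myh11 and Cnn1 differences after centring are therefore not a measured gain. Sm22A and Vim, detected in all 10 cells, had smaller differences under both centrings.

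**Figure D4:**
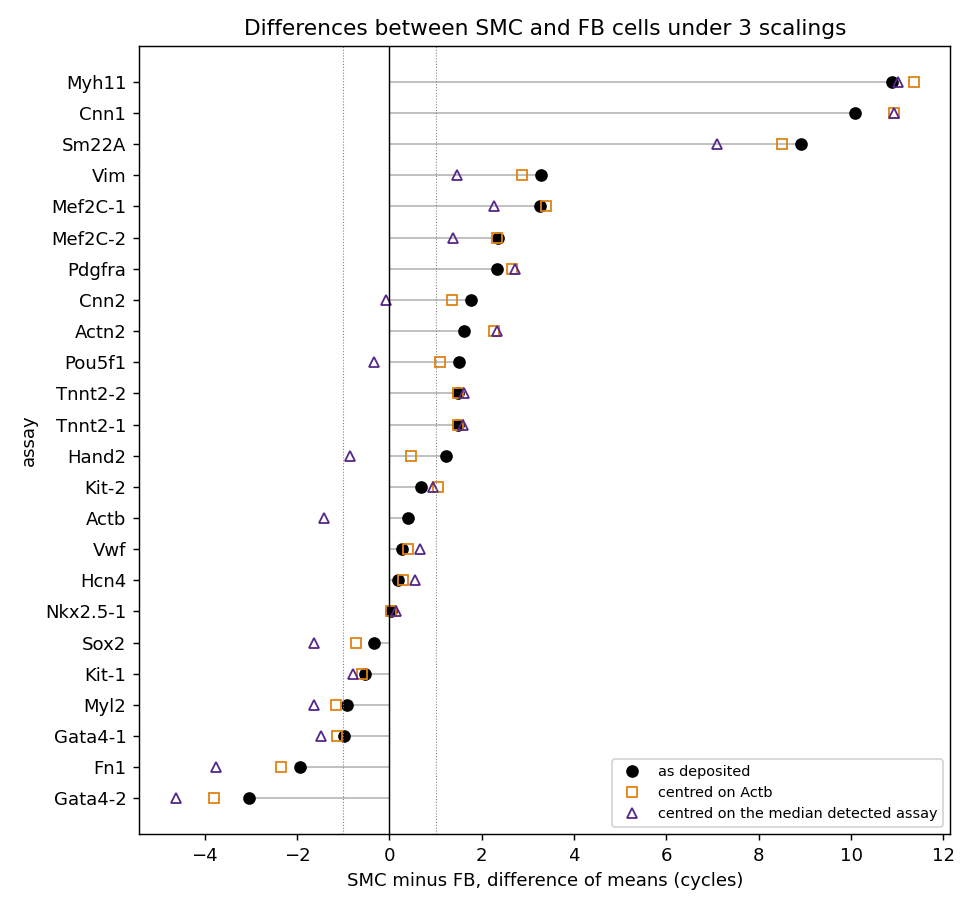
Difference of means, SMC minus FB (cycles), for the 24 assays with signal, as deposited (black circles), after centring each cell on Actb (orange squares) and after centring on its median detected assay (purple triangles), with dotted lines at 1 cycle on either side of 0. Myh11, Cnn1 and Sm22A lie beyond 7 cycles under all 3 scalings, while Cnn2, Pou5f1 and Hand2 turn below 0 under the last. Undetected entries were set to the lowest centred value, so assays without FB signal, such as Cnn1, Pdgfra, Actn2 and Tnnt2, cannot fall below 0.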

How the data were processed

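Single cells were sorted, lysed, reverse transcribed, pre-amplified with TaqMan assays and read on 48x48 microfluidic chips, per the labels' protocols. The values the authors deposited are quantification cycles (Ct) per assay and cell. No correction to a housekeeping gene is recorded, and Actb varies between cells. For the cycle threshold, any quality filter and the cycle number, nothing is stated in the labels. Cells were taken by the names in the second line of the reference table, and the control columns were left out. Expression was computed as 25 minus Ct. Means, SDs between cells, detected counts with exact (Clopper-Pearson) 95% intervals and differences of means (SMC minus FB) followed, in Python 3.11.15 with pandas 2.3.3 and scipy 1.17.1. No test was run, because each type is 1 sample. Precision is limited by 5 cells per type and by the detection limit, and intervals cover counting error only. The code for differences of means was tested on simulated data.

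The cells were taken by name with no measured value used, although earlier results of these data were known. The marker lists and the rule for named assays were chosen with those results known. Named were assays at least 1 cycle apart (up to 12 in each direction), assays with detection shares at least 50 percentage points apart, and members of the marker lists for smooth muscle, fibroblast, calponin family and cytoskeleton, cardiomyocyte, endothelial, progenitor and transcription factor, pluripotency and adhesion genes. Tbx1, which is on none of these lists, was named after its values were seen. Of the 33 genes, 30 matched a RefSeq symbol and 3 a synonym (GRCm38.p6). The row Myh11-1 of the reference table was read as Myh11, and Calponin 1 and Calponin 2 as Cnn1 and Cnn2. Alternatives were centring by Actb or by the median over a cell's detected assays (with undetected entries set to the lowest centred value), a limit of Ct 23, detecting cells only (at least 3 per type), medians, leaving out each cell, averaging the assays of a gene, and a filter on cells.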

Additional observations from a re-analysis of the deposited data

Results flagged for a closer look

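Within a type of 5 cells, a reading stood apart when its gap to the nearest other cell was more than 0.71 of the range of that type. Chance flags about 1 in 20 such groups of normally spread values, and 14 of the 38 groups with any spread held such a reading here. In 12 of the 14 the reading was the only detection in its type, which meets the criterion by construction.

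In SMC these were Gata4-2 (5.97 cycles), Myl2 (4.67), Vwf (1.41), Hcn4 (0.91) and Kit-1 (0.57) in SMC-2, Tnnt2-1 (7.41), Tnnt2-2 (7.48) and Nkx2.5-1 (0.17) in SMC-5, and Kit-2 (3.46) in SMC-4. In FB they were Kit-1 (3.19) in FB-1, Gata4-1 (4.91) in FB-4 and Myh11 (4.37) in FB-5. The other 2 were missing signals where the type otherwise had one: Hand2 at 0 in SMC-4, against 5.89 in the next cell, and Gata4-2 at 0 in FB-5, against 4.49 in the next cell. Both Tnnt2 assays read SMC-5, while each Kit reading, the Nkx2.5-1 reading and the Gata4-2 reading of SMC-2 came from 1 assay of 2.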

How the results depend on the processing

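Of the 15 assays at least 1 cycle apart, 14 stayed so in the same direction after centring on Actb and 12 after centring on the median detected assay. At a limit of Ct 23 it was 14, and with medians over cells 11. Among the 15, Cnn1, Pdgfra, Actn2 and both Tnnt2 assays had no FB signal. They could not turn lower in SMC under these settings. Assays lower in SMC numbered 4 after centring on Actb, of which 1 (Fn1) did not overlap between the types. They numbered 6 after centring by the median of detected assays and 1 with detecting cells only. With detecting cells only, 8 assays had at least 3 such cells in each type, of which 6 were higher, and the median difference was 1.75 cycles; fewer assays entered that comparison. Hand2 (-0.86), Cnn2 (-0.064) and Pou5f1 (-0.32) turned to lower in SMC under centring on the median detected assay, a median that includes the smooth muscle genes. Leaving out each cell in turn gave 10 to 13 assays higher, 2 to 4 lower (4 without SMC-2, FB-3 or FB-5), 4 to 6 not overlapping and higher, and 0 to 1 not overlapping and lower (1 without SMC-2). Averaging the assays of a gene left 11 of 33 genes higher and 2 lower, and the filter on cells removed 0 cells. Counting undetected cells at the limit sets the size of the Myh11 and Cnn1 differences, which were 9.28 and 8.08 cycles at a limit of Ct 23. No paired analysis was possible because cell numbers name cells and pair none, and no test was run.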
